A study of Mus musculus and Sus scrofa with 30 samples.

Results

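Porcine dedifferentiated fat (DFAT) cells given rosiglitazone were compared with the same cells given dicoumarol and magnolol together (D+M), in 6 of the 30 libraries of the series. DFAT cells are mature fat cells of subcutaneous fat that have returned to a dividing, fibroblast-like state and can form fat again. The study asked, per its title, whether natural compounds raise fat cell formation for food production, and it treated DFAT cells and the mouse line 3T3-L1 with DMSO vehicle, dicoumarol, magnolol, D+M or rosiglitazone. The 6 libraries were taken by their labels alone, 3 labelled DFAT_Rosiglitazone and 3 labelled DFAT_D+M. They were compared with each other directly, and vehicle means are printed only as a control level.

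Both groups were harvested on day 5 of induction and shared every other agent of the medium. The cells had grown in DMEM with 20% fetal bovine serum and were induced in Advanced DMEM with 2% serum, 0.5 µM dexamethasone (a glucocorticoid), 12.5 µM IBMX (an inhibitor of the phosphodiesterases that break down cAMP), 20 µM biotin, 10 µM pantothenate, 2 mM GlutaMAX and 100 µg/mL Primocin. The 3T3-L1 medium was another one, with 0.75 µg/mL insulin, 75 nM dexamethasone, 37.5 µM IBMX and 10% serum, and neither biotin nor pantothenate named; no insulin is named for DFAT cells. No dose of rosiglitazone, dicoumarol or magnolol was given in the sources used here, so the comparison is one of treatments and not of matched doses. The labels do not say whether the 3 replicates of a group were separate cultures or came from more than 1 pig. The p-values therefore measure only the spread between these libraries, which may be technical.

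Rosiglitazone is a synthetic ligand of PPARγ, the nuclear receptor that drives fat cell formation. With its partner RXR the receptor switches on genes for fatty acid uptake, lipid droplets, glycerol supply and adipokines. Magnolol is a lignan of magnolia bark, and dicoumarol is a coumarin that blocks vitamin K recycling and the quinone reductase NQO1. As precursors turn into fat cells they usually make less fibrillar collagen, and cAMP, raised by IBMX, starts a set of early genes through the factor CREB.

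The authors' values are gene counts divided by DESeq2 size factors, called normalized counts here. The steps between low values put the depth at 44.75 to 66.43 M reads in the 6 libraries. The 3 rosiglitazone libraries had lower normalized totals, 56.87 to 58.82 M against 62.82 to 69.26 M with D+M. Mitochondrial genes took 6.848% to 10.81% of the rosiglitazone libraries and 12.16% to 15.1% of the D+M libraries, and the collagen gene COL1A1 took 1.386% to 1.56% and 2.752% to 2.918%. Rosiglitazone replicate 2 stood apart from its group: its score on the first principal component, which held 37.69% of the variance, was 35.98 against 12.36 and 10.08, and the D+M libraries lay between -28.5 and -14.06. It also had the lowest mitochondrial share. D+M replicate 3 lay apart from its own group on that component, at -28.5 against -15.86 and -14.06. It had the highest mitochondrial share (15.1%). The part of these differences in the results was not tested, and counts without each library are given below.

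Genes with a mean normalized count of at least 10 over the 6 libraries were fitted with limma on log2(value + 1). Differences are rosiglitazone minus D+M, so a positive log2 difference is a higher level with rosiglitazone, and a gene passed at a Benjamini-Hochberg adjusted p under 0.05. Of 14854 genes tested, 1336 passed (8.99%). With rosiglitazone 594 were higher (4.0%) and with D+M 742 were higher (5.0%). The list counts below are to be read beside these shares. Most differences were modest, with a median of 1.416-fold among the genes that passed. At least 2-fold higher were 79 genes with rosiglitazone (0.532%) and 86 with D+M (0.579%). At an unadjusted p under 0.05 there were 3405 genes. In all 1336 genes the 3 libraries of one group lay above the 3 of the other, as they did in 29.6% of all genes tested (15.1% with rosiglitazone above and 14.5% with D+M above). The median log2 difference of all genes was 0.0035, and for 9627 genes (64.81%) the 95% interval lay within 1.5-fold either way.

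The replicate numbers were shared by the groups, and libraries with the same number deviated together (r of 0.122, 0.219 and 0.291 across genes). With the replicate number as a block, 2685 genes passed (18.1%), 1283 of them higher with rosiglitazone (8.64%) and 1402 higher with D+M (9.44%), and all 1336 genes of the unblocked fit were among them. With all 15 DFAT libraries in 1 model, 2523 passed (17.0%), 1224 on the rosiglitazone side (8.24%) and 1299 on the D+M side (8.75%). Leaving out 1 library lowered the 1336 to 767 without rosiglitazone replicate 3, to 726 without D+M replicate 1 and to 798 without D+M replicate 2. Of the libraries that stood apart in their groups, leaving out rosiglitazone replicate 2 gave 1453 and leaving out D+M replicate 3 gave 946. None of the 1336 genes changed direction in any of the 16 alternative fits. Since the groups did not overlap in these genes, only a new scaling of the libraries, as in quantile normalization, could have changed a direction. Where a gene list below has 0 genes higher on one side by limma, limma-voom also gave 0, with the exception of the mitochondrial genome. At an unadjusted p under 0.05 such sides held 3 genes for lipid droplets, 2 for peroxisomes, 1 each for the citric acid cycle, respiratory chain, contractile, glucocorticoid, glycolysis and thermogenic lists, and 0 for the others besides the mitochondrial genome.

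**Figure D1:**
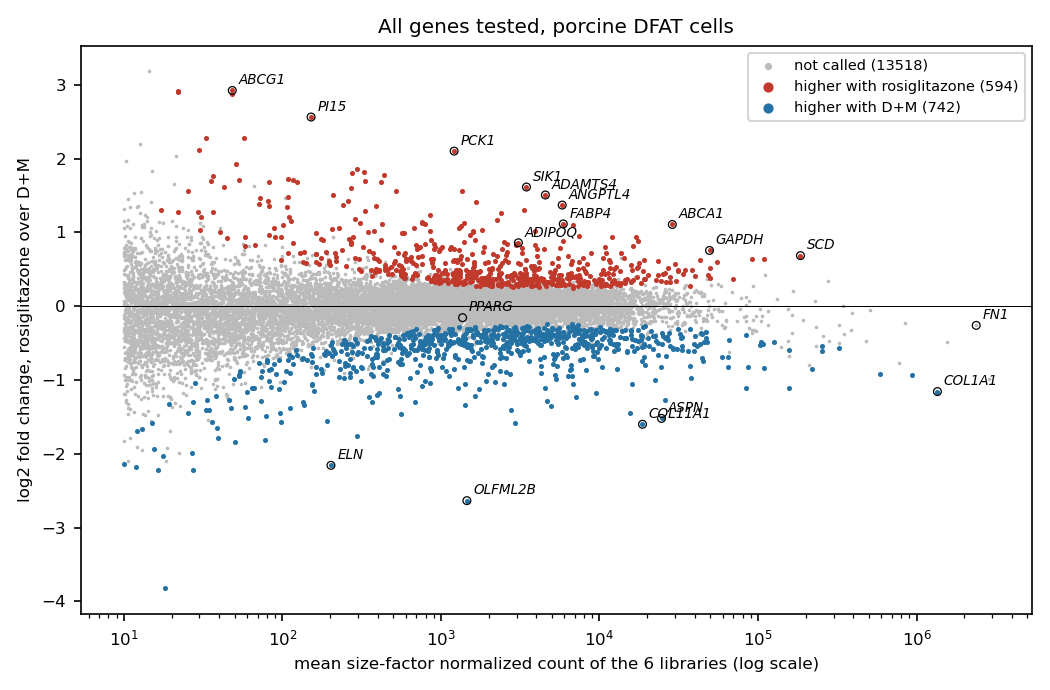
Log2 difference (rosiglitazone minus D+M, vertical axis) against the mean normalized count of the 6 libraries (horizontal log axis) for 14854 genes. Grey points did not pass; red and blue points are the 594 genes higher with rosiglitazone and the 742 higher with D+M. Named genes are ringed, from PI15 and ABCG1 at the top to OLFML2B at the bottom.

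Among genes with a symbol and a mean normalized count of at least 100, the gene with the largest difference was OLFML2B, which encodes an olfactomedin-domain protein of the extracellular matrix (chromosome 4, 88522240 to 88560306, plus strand, in the deposited coordinates, whose pig build was not stated in the sources used here). It read 420.4, 375.8 and 410.4 normalized counts with rosiglitazone and 2605, 2175 and 2766 with D+M. The groups were far apart, and the vehicle mean of 1333 lay between them. The log2 difference was -2.64 (SE 0.10, limma adjusted p = 1.64e-06), the lowest adjusted p of all genes. On the rosiglitazone side the largest within the same limits was PI15, a secreted protein of the family of peptidase inhibitors (chromosome 4, 61114497 to 61142811, minus strand). It read 305.0, 266.2 and 210.8 with rosiglitazone and 44.14, 47.89 and 36.95 with D+M, with a vehicle mean of 151.2. The log2 difference was 2.56 (SE 0.19, limma adjusted p = 7.48e-05). For both genes vehicle cells stood between the treatments, so the treatments lay on opposite sides of the control.

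PCK1, the phosphoenolpyruvate carboxykinase that makes glycerol for triglyceride in fat cells and is a textbook PPARγ target (chromosome 17, 57930432 to 57936522, plus strand), came next on that side within these limits. It read 2445, 1804 and 1652 with rosiglitazone and 562.0, 432.0 and 377.1 with D+M, against a vehicle mean of 13.68. Both treatments were thus far above vehicle and D+M reached 23.24% of the rosiglitazone mean (log2 difference 2.10, SE 0.17, limma adjusted p = 1.08e-04). The other 13 largest on the rosiglitazone side were TMEM100, ESM1, N4BP3, BDKRB2, STC1, UPP1, NPTX1, SLC27A2, FCN2, SIK1, NR4A3, RBP5 and TGFBI, with log2 differences of 1.56 to 1.86. They were of several kinds. BDKRB2 is the bradykinin B2 receptor and read 772.8, 583.8 and 674.2 with rosiglitazone against 189.3, 209.3 and 186.0 with D+M. SLC27A2, which imports and activates long-chain fatty acids, read 193.5, 190.9 and 183.3 against 63.76, 66.63 and 45.86. In both the groups were well apart. Genes with lower counts, among them ABCG1 (2.92), IGFBP3 (2.28) and MMP1 (2.28), differed by more than PCK1.

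On the D+M side the 15 largest within these limits included several matrix genes. After OLFML2B came ELN, GGT5, COL11A1, C1QTNF6, SCUBE3, ASPN, MEGF6, GLT8D2, ITGBL1, OGN, MYH11, CDH4, CD248 and NREP, with log2 differences of -2.16 to -1.30. ELN, the elastin of elastic fibres, read 93.55, 71.90 and 57.03 with rosiglitazone and 268.8, 359.2 and 364.4 with D+M, beside 59.62 in vehicle. C1QTNF6, a secreted relative of adiponectin, read 1396, 1657 and 1347 against 4519, 4699 and 3995, beside 3568 in vehicle. Set beside vehicle, elastin was higher with D+M and close to it with rosiglitazone, whereas C1QTNF6 was lower with rosiglitazone and nearer to it with D+M. Just inside this choice of 15 a side were TGFBI at 1.56 and NREP at -1.30, and just outside it ADAMTS4 at 1.51 and PPL at -1.29.

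**Figure D2:**
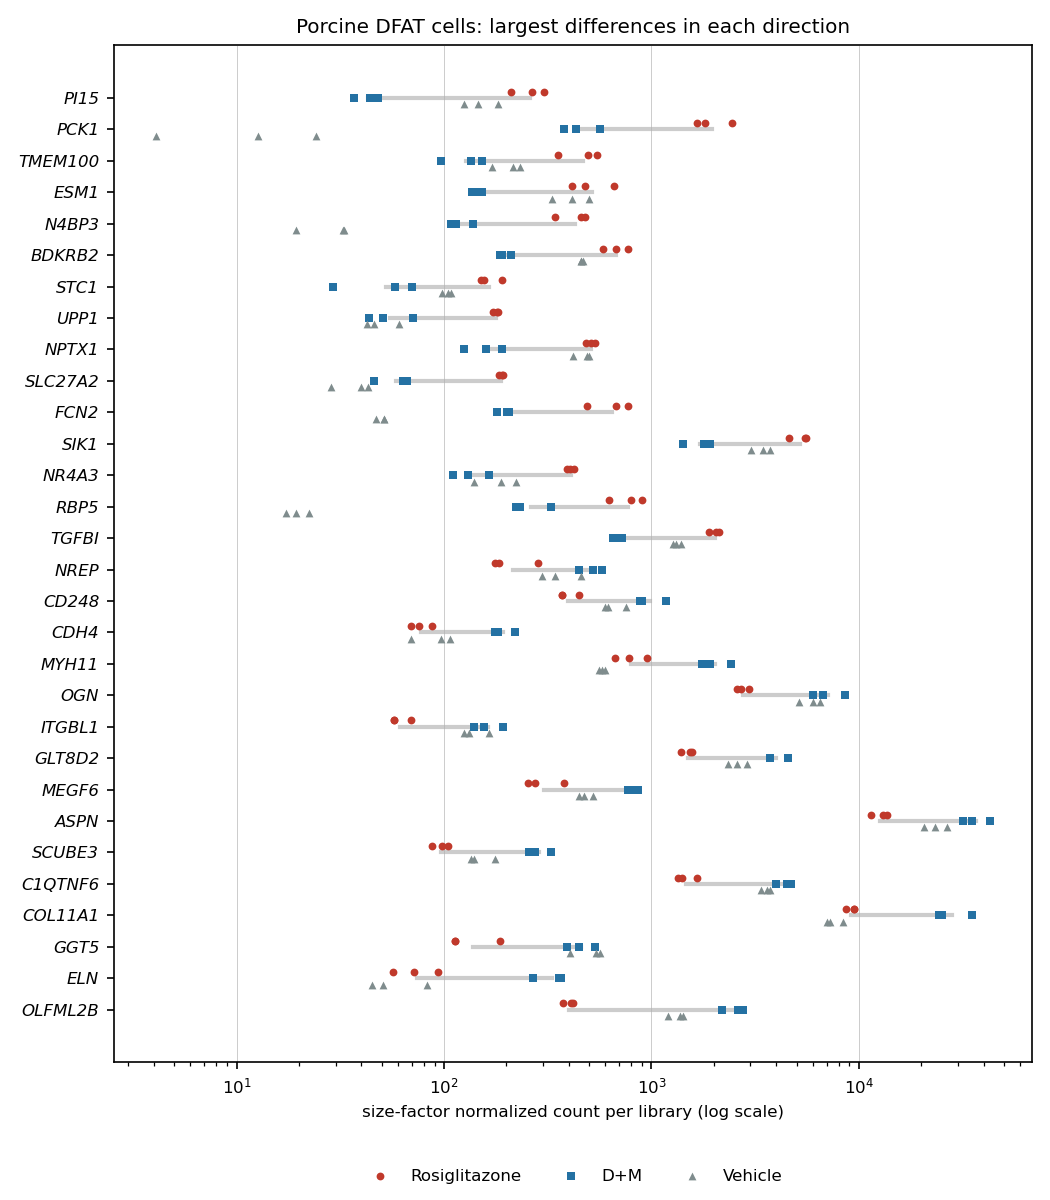
Normalized counts (log axis) of the 15 genes with the largest log2 difference on each side, among those with a symbol and a mean of at least 100. Points are single libraries with rosiglitazone, D+M or vehicle, and grey bars join the 2 treatment means. The rosiglitazone and D+M points do not overlap in any of the 30 genes. That follows from the choice of genes, since it held for all 1336 that passed and for 29.6% of all tested.

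The vehicle libraries took no part in the test. Where their mean lay is a description. It was between the 2 treatment means for 414 of the 594 genes higher with rosiglitazone (69.7%) and for 535 of the 742 higher with D+M (72.1%). Among all genes tested with a higher rosiglitazone mean it was between for 41.33%, and with a higher D+M mean for 38.61%. In 132 of the 594 genes (22.22%) vehicle was below both treatments, PCK1, FABP4, CIDEC and ADIPOQ among them, against 25.85% of all genes tested with a higher rosiglitazone mean. In 93 of the 742 (12.53%) it was above both, against 28.19% of all with a higher D+M mean. The genes that passed were chosen for a gap between the treatments, and a wider gap leaves more room for the vehicle mean. The shares among all genes therefore cannot say whether vehicle lay between more often than the choice itself brings.

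Fat cell genes differed from one another in this comparison. The receptor itself, PPARG (chromosome 13, 68302322 to 68433944, plus strand), read 1378, 1233 and 1280 normalized counts with rosiglitazone and 1454, 1403 and 1474 with D+M. Its log2 difference was -0.16 with a 95% interval of -0.33 to 0.02 (limma adjusted p = 0.2736). CEBPA, its partner in fixing the fat cell state, gave 0.15 with an interval of -0.18 to 0.47 (limma adjusted p = 0.611). Among 17 adipogenic transcription factors tested, 2 were higher with rosiglitazone and 1, EBF1, with D+M. The 2 were the corepressor TLE3 (log2 difference 0.45) and CEBPB (0.43). Without D+M replicate 1 CEBPB (adjusted p = 0.0572) and EBF1 (0.0734) were lost, EBF1 also without rosiglitazone replicate 3 (0.0774), and with the block 4 factors passed on the rosiglitazone side. Without a variance trend 0 passed on either side.

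FABP4, the abundant fatty acid carrier of fat cells, was higher with rosiglitazone with little spread. It read 7975, 8167 and 8134 with rosiglitazone and 3871, 3610 and 3726 with D+M, beside 650.9 in vehicle. The log2 difference was 1.12 (SE 0.07, limma adjusted p = 2.15e-05). Of 12 genes tested for fatty acid uptake and activation 6 were higher with rosiglitazone and 0 with D+M, at a median log2 difference of 0.30. FABP5 (0.60), FABP3 (0.52), ACSL4 (0.42), ACSL1 (0.31) and the lipase LPL (0.28) were the others. LPL, which frees fatty acids from blood lipoproteins, read 40728, 40073 and 41842 against 34187, 31990 and 34945, and passed narrowly (limma adjusted p = 0.04838). The receptor CD36 was 17690 on average against 13949 (0.34) and missed (adjusted p = 0.09609, or 0.002515 with the block). The 6 were 3 with no filter on low values, with no variance trend or without rosiglitazone replicate 1, and 2 without rosiglitazone replicate 3, D+M replicate 1 or D+M replicate 2. LPL was lost without each library but rosiglitazone replicate 2 (adjusted p of 0.0534 to 0.22), as was FABP3 (0.0601 to 0.137). ACSL4 was lost without rosiglitazone replicate 3 (0.0563), D+M replicate 1 (0.0547) or D+M replicate 2 (0.0574), and ACSL1 without these or rosiglitazone replicate 1 (0.073 to 0.146). CD36 passed without rosiglitazone replicate 2 (0.0254).

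CIDEC, which fuses small lipid droplets into large ones, read 3406, 2838 and 3113 with rosiglitazone and 1700, 1240 and 1259 with D+M. The groups did not overlap, and vehicle cells averaged 325.8 (log2 difference 1.17, SE 0.12, limma adjusted p = 3.39e-04). PLIN2, the droplet coat protein found in most cells, read 14666, 12762 and 13392 against 8766, 8021 and 8027 (0.72). Of 11 droplet genes tested 4 were higher with rosiglitazone, the other two being HILPDA (0.90), an inhibitor of the lipase PNPLA2, and FITM2 (0.27), and 0 were higher with D+M (6 and 3 with the block). PLIN1 and PLIN4 coat the droplets of mature fat cells. PLIN1 read 5128, 4331 and 4589 against 3969, 3829 and 3910 and missed (0.26, adjusted p = 0.06732, or 0.01351 with the block). PLIN4 read 6486, 5054 and 4960 against 6620, 6297 and 6248, overlapping (-0.23, adjusted p = 0.2102, or 0.0441 with the block). FITM2 was lost in each of the 6 fits that left out 1 library (0.0512 to 0.155), while PLIN1 passed without rosiglitazone replicate 2 (0.0233) and PLIN4 without rosiglitazone replicate 1 (0.0207). The treatment means of PLIN1 and PLIN4 were 26.92 to 33.39 times the vehicle mean.

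**Figure D3:**
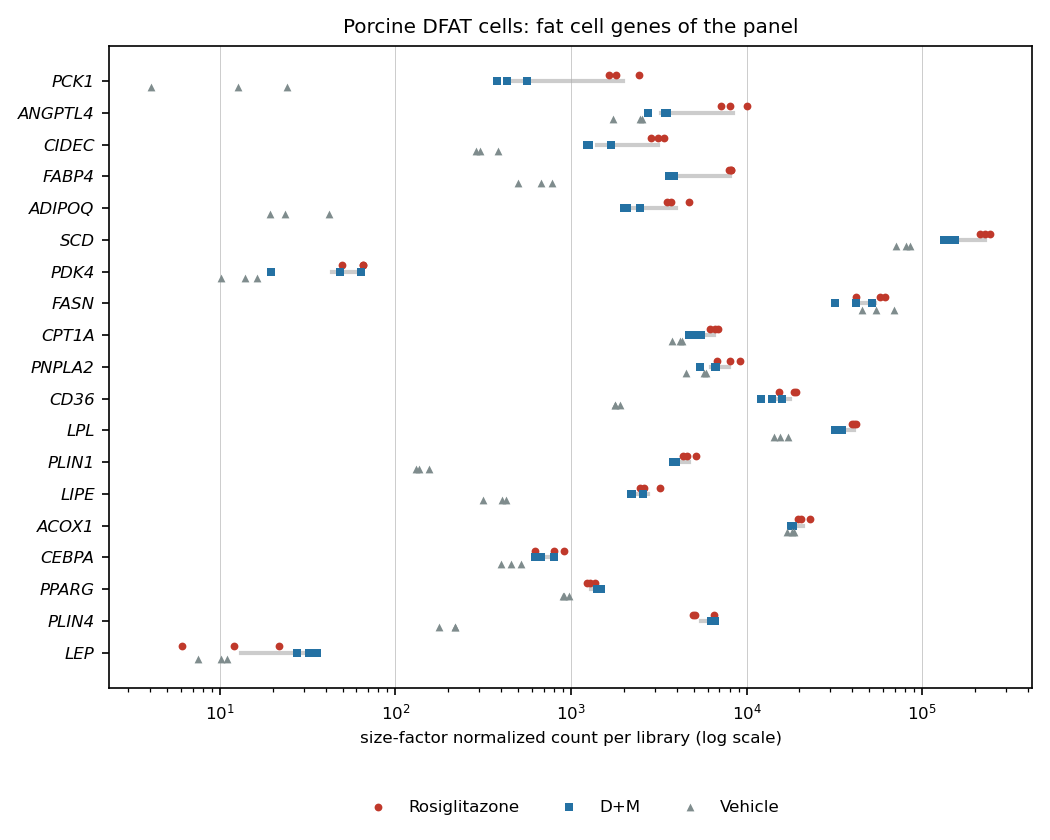
Normalized counts (log axis) of panel genes of the fat cell programme in each library with rosiglitazone, D+M and vehicle. FABP4, CIDEC and ADIPOQ separate the treatments, while PPARG, CEBPA and PLIN4 overlap or nearly do.

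ADIPOQ, the fat cell hormone adiponectin, read 3535, 3688 and 4717 with rosiglitazone and 2091, 1997 and 2463 with D+M. The groups did not overlap and both were far above the vehicle mean of 28.35 (log2 difference 0.86, SE 0.12, limma adjusted p = 0.001412). ANGPTL4, a secreted inhibitor of LPL, read 10068, 8017 and 7139 against 3529, 3440 and 2744 (1.37, SE 0.13, adjusted p = 2.01e-04). Of 12 adipokine genes tested 5 were higher with rosiglitazone, the others being the vascular peptide APLN (1.15), VEGFA (0.48) and NAMPT (0.36). The 2 higher with D+M were C1QTNF6 and SFRP5 (-0.65), a Wnt inhibitor, and the median was -0.02 (0.18 after quantile normalization). The 5 were 3 with no variance trend and without D+M replicate 2, where NAMPT was lost (adjusted p = 0.067); VEGFA was lost without each library but rosiglitazone replicate 2 (0.0996 to 0.132). LEP, leptin, read 21.79, 11.98 and 6.111 with rosiglitazone and 27.46, 32.27 and 35.67 with D+M. At these low counts its log2 difference of -1.35 missed (adjusted p = 0.08377, or 0.04064 with the block; 0.0312 without rosiglitazone replicate 1).

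Among genes of glycerol and pyruvate supply, GK, the glycerol kinase, read 6100, 4454 and 5211 with rosiglitazone and 2868, 2483 and 2409 with D+M (log2 difference 1.01). AQP3, a channel for water and glycerol, read 4427, 3321 and 3777 against 2390, 1974 and 2036 (0.84). These 2 and PCK1, LDHA, PDK1 and PCK2 made 6 of 15 genes tested, and 1, the pyruvate carboxylase gene PC (-0.46), was higher with D+M (5 and 0 with no filter on low values, 4 and 0 with no variance trend). PC was lost without rosiglitazone replicate 3, D+M replicate 1 or D+M replicate 2 (adjusted p of 0.0688 to 0.0955), and PDK1 without D+M replicate 1, D+M replicate 2 or D+M replicate 3 (0.0711 to 0.0848). PDK4 gave 60.11 and 43.84 on average and missed (0.59, adjusted p = 0.4029).

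In fat synthesis few genes passed. SCD, the desaturase that makes oleate, read 243352, 228144 and 213654 with rosiglitazone and 152953, 132479 and 140809 with D+M (log2 difference 0.69, adjusted p = 0.00393). With ELOVL6 (0.36) it was 1 of 2 genes higher with rosiglitazone among 14 of de novo lipogenesis, and the carboxylase ACACB (-0.50) was higher with D+M (3 and 2 with the block, 1 and 1 with no filter or no trend). FASN, fatty acid synthase, overlapped between the groups (0.37, adjusted p = 0.2587) but passed with the block (0.006489); it was higher with rosiglitazone within each replicate number. Of 11 genes of triglyceride synthesis only DGAT2, which adds the last fatty acid, passed (0.44); 5 passed with the block and 0 with no trend. Of 9 lipolysis genes 3 were higher with rosiglitazone (6 with the block): the monoglyceride lipase MGLL (0.78), the adenosine receptor ADORA1 (0.75) and the lysosomal lipase LIPA (0.27). The lipases PNPLA2 (0.35) and LIPE (0.24) missed, with adjusted p of 0.09832 and 0.2069, and passed with the block at 0.002373 and 0.02087. PNPLA2 also passed without rosiglitazone replicate 3 (0.0426), and LIPA was lost without that library, rosiglitazone replicate 1, D+M replicate 1 or D+M replicate 2 (0.0628 to 0.186). Without rosiglitazone replicate 3, D+M replicate 1 or D+M replicate 2 the lipogenesis list held 1 gene on the rosiglitazone side, SCD, since ELOVL6 was lost (adjusted p of 0.0769 to 0.0961).

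Of 18 genes of mitochondrial fatty acid oxidation 3 were higher with rosiglitazone, CPT2 (0.59), CPT1A (0.36) and ECI2 (0.32), and CPT1A and CPT2 carry fatty acids into mitochondria. Of 15 peroxisomal genes 3 were, PEX11A (0.67), ACAA1 (0.35) and catalase, CAT (0.33). In the fits without rosiglitazone replicate 3, D+M replicate 1 or D+M replicate 2 the first count was 1, CPT2 (CPT1A had adjusted p of 0.0634 to 0.111), and the second was 1 without rosiglitazone replicate 1, D+M replicate 2 or D+M replicate 3. With no filter or no variance trend each count was 1, and with the block 4 peroxisomal genes were higher with rosiglitazone and 2 with D+M. ECI2 was lost without any 1 library (0.0504 to 0.114). ACAA1 was lost without rosiglitazone replicate 1, rosiglitazone replicate 3, D+M replicate 2 or D+M replicate 3 (0.0682 to 0.0943), and CAT without rosiglitazone replicate 1 or any 1 D+M library (0.0696 to 0.116). By limma 0 of 18 citric acid cycle genes passed and 1 of 29 nuclear genes of the respiratory chain did, CYCS, cytochrome c (0.37). In all 18 and all 29 the 95% interval lay within 1.5-fold. The 13 protein genes of the mitochondrial genome were lower with rosiglitazone by a median of 0.52 on the log2 scale, and 0 passed in the limma fit without the block. At an unadjusted p under 0.05 there were 8, with the block 11 passed and under limma-voom 2. The mitochondrial shares given above did not overlap between the groups, but they hold the counts of these same genes. The median was -0.253 after quantile normalization, where 0 passed, and -0.302 without rosiglitazone replicate 2, where 0 passed. Of 12 thermogenic genes 3 were higher with rosiglitazone: PPARGC1A, the coactivator of mitochondrial biogenesis (1.62), DIO2, which activates thyroid hormone (1.29), and GK.

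The cAMP-responsive genes were the list with the largest median, 0.64, and 12 of 21 tested were higher with rosiglitazone and 0 with D+M. SIK1, a kinase that CREB induces, read 5522, 5551 and 4589 with rosiglitazone and 1791, 1920 and 1421 with D+M, beside 3402 in vehicle. NR4A3, an orphan nuclear receptor of the immediate early class, read 406.3, 423.7 and 392.1 against 110.8, 131.2 and 164.3, beside 183.3. Both genes were above vehicle with rosiglitazone and below it with D+M, with log2 differences of 1.62 (SE 0.12, limma adjusted p = 6.65e-05) and 1.60 (SE 0.15, adjusted p = 2.04e-04). AREG, an EGF receptor ligand, differed by 1.68 and NR4A1 by 1.36. PDE4B and PDE4D, which degrade cAMP, differed by 1.13 and 1.12. PDE4D read 1042, 1174 and 1029 against 464.9, 549.7 and 477.8, and vehicle, at 1259, was above both. Vehicle was between the treatments for 6 of the 12 genes, above both for 4 and below both for 2. The count was 8 to 12 in the fits that left out 1 library, and 7 with no filter on low values or no variance trend.

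Genes of the integrated stress response, which the factor ATF4 drives when amino acids run short or proteins misfold, were all on the rosiglitazone side: 25 of 25 had a positive difference (median 0.36) and 12 passed. The 12 were 18 with the block, 6 with no filter on low values and 4 with no variance trend. DDIT3, a factor tied to stress-induced death, read 3504, 2965 and 3366 with rosiglitazone and 1867, 2073 and 1967 with D+M (0.73, adjusted p = 5.36e-04). TRIB3, an inhibitor of the kinase AKT, read 11616, 11734 and 9782 against 7118, 7142 and 5921 (0.72). ATF4 itself differed by 0.49 and the cytokine GDF15 by 0.80, which was lost without rosiglitazone replicate 1 (adjusted p = 0.0693). Of 19 chaperones and other genes of the unfolded protein response 3 were higher with D+M, HSP90B1 (-0.52), PDIA4 (-0.45) and CALR (-0.42), and 1, DNAJB9 (0.49), with rosiglitazone. With the block 8 were higher with D+M, and with no variance trend 1.

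Glycolysis and hypoxia-responsive genes made 14 of 25 higher with rosiglitazone and 0 with D+M (median 0.47). EGLN3, an oxygen sensor that hypoxia induces, read 881.7, 1014 and 862.6 with rosiglitazone and 481.6, 444.5 and 400.0 with D+M (1.06, limma adjusted p = 2.61e-04). HK2, the hexokinase that traps glucose, read 5632, 5276 and 5951 against 3447, 3070 and 3302 (0.78). NDRG1, another hypoxia gene, differed by 0.94, and GAPDH, ENO1, ALDOA, TPI1, GPI, PFKL and PGK1, enzymes of the pathway itself, by 0.43 to 0.76. For 12 of the 14 genes the vehicle mean lay between the treatments. The 14 were 8 with no variance trend and 12 or 13 in the fits that left out 1 library; with the block 2 were higher with D+M. PFKL was lost without rosiglitazone replicate 1 (adjusted p = 0.0839) or rosiglitazone replicate 2 (0.0596).

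NRF2 targets, genes of antioxidant defence, counted 8 of 20 higher with rosiglitazone and 2 with D+M (5 and 0 with no filter or no variance trend). SRXN1, which repairs oxidised peroxiredoxins, read 9455, 10852 and 9005 with rosiglitazone and 5110, 5421 and 4637 with D+M, beside 8510 in vehicle (0.95, adjusted p = 1.92e-04). NQO1, the enzyme that dicoumarol inhibits, read 1830, 1911 and 1642 against 1265, 1352 and 1261, and both were below the vehicle mean of 2287 (0.47, SE 0.08, limma adjusted p = 0.006199). OSGIN1 (0.99), TXNRD1 (0.61) and SLC7A11 (0.59) were also higher with rosiglitazone, and HMOX1 was not analysed here. The 2 D+M calls, EPHX1 (-0.38) and ABCC1 (-0.29), were both lost without rosiglitazone replicate 3, D+M replicate 1 or D+M replicate 2 (adjusted p of 0.0663 to 0.159), ABCC1 also without D+M replicate 3 (0.0683). Of 12 AHR and xenobiotic genes 3 were higher with rosiglitazone, TIPARP (0.63) first, and 4 with D+M, among them ALDH1A1 (-0.53), CYP1B1 (-0.51) and AHR (-0.44). The 4 were 2 with no filter, with no trend or without rosiglitazone replicate 3, in which CYP1B1 was lost (adjusted p = 0.0562).

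Cholesterol efflux and synthesis genes lay on different sides. ABCG1, which exports cholesterol to HDL and is a target of the receptor LXR, read 74.33, 98.44 and 84.53 with rosiglitazone and 13.73, 12.49 and 6.370 with D+M, beside 24.30 in vehicle (2.92, SE 0.32, limma adjusted p = 4.46e-04). ABCA1, the exporter to lipid-poor apolipoprotein, read 40954, 36144 and 40893 against 18819, 16456 and 19534 (1.11). With MYLIP (0.36) and LPCAT3 (0.29) they made 4 of 11 LXR and efflux genes, and NPC1 (-0.34) was higher with D+M (4 and 0 with no filter, 2 and 0 with no trend). The 4 were 2, ABCG1 and ABCA1, without D+M replicate 1 or D+M replicate 2. LPCAT3 was also lost without rosiglitazone replicate 1 (adjusted p = 0.0596) or rosiglitazone replicate 3 (0.0849), and NPC1 without rosiglitazone replicate 3, D+M replicate 1 or D+M replicate 3 (0.0724 to 0.106). Cholesterol synthesis lay on the other side: all 20 genes tested had a negative difference (median -0.27), and 9 passed as higher with D+M and 0 as higher with rosiglitazone. MVK, mevalonate kinase, read 442.1, 539.3 and 441.0 with rosiglitazone and 847.5, 718.3 and 675.2 with D+M (-0.65). Vehicle was between the treatments for all 9. The 9 were 2 with no filter on low values or no variance trend, 3 without D+M replicate 1, and 5 without rosiglitazone replicate 1 or rosiglitazone replicate 3.

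**Figure D4:**
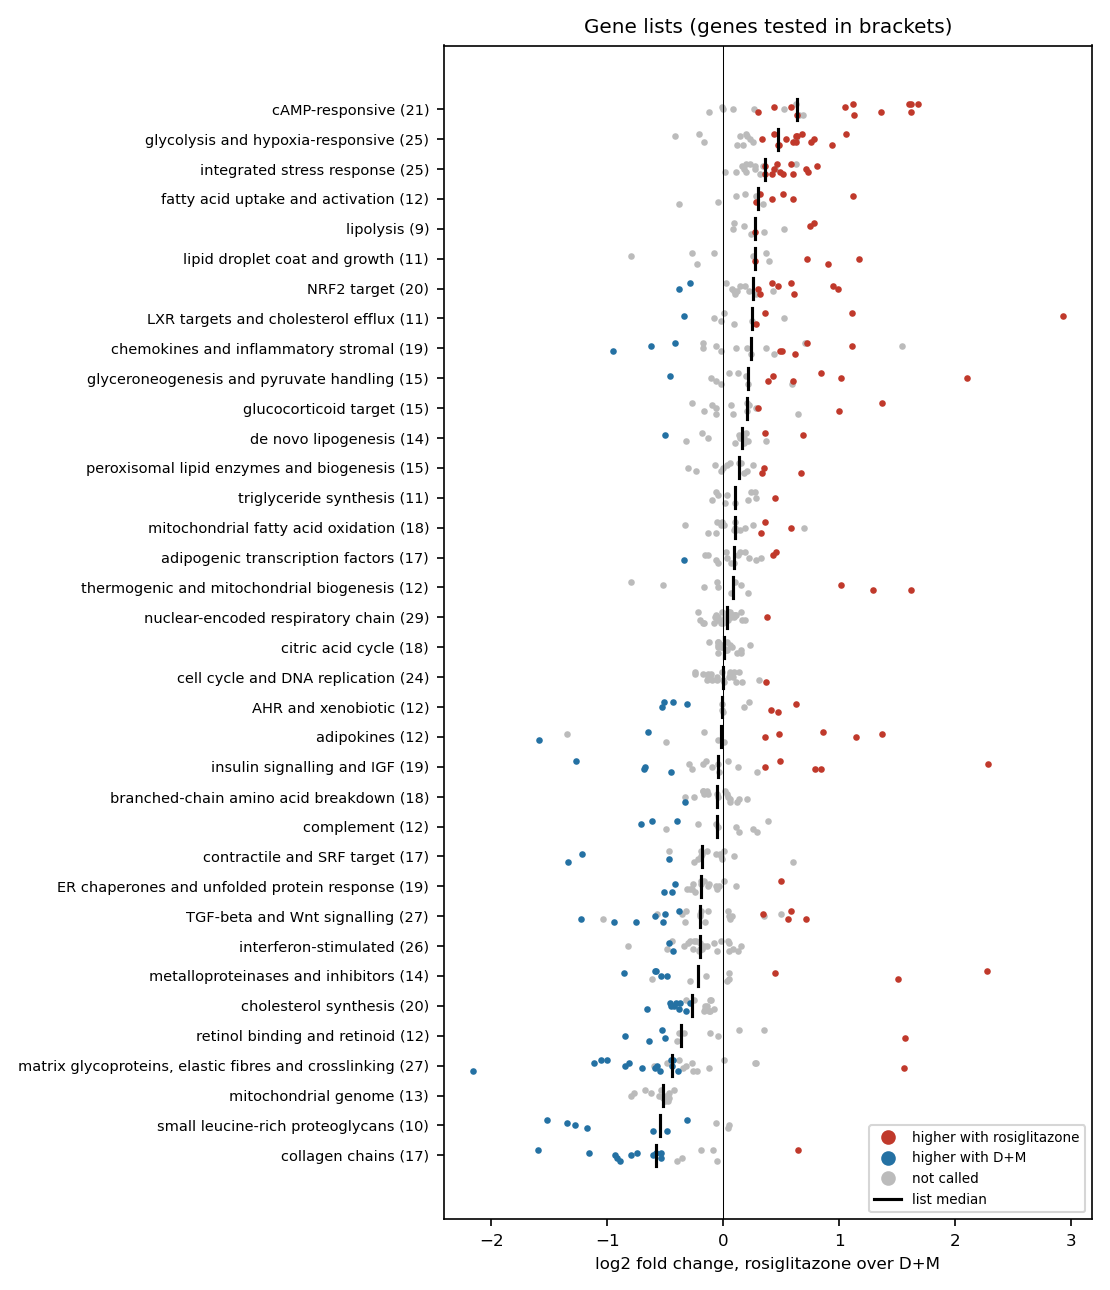
Log2 differences (rosiglitazone minus D+M) of the members of each gene list, with the list medians. Points to the right are higher with rosiglitazone; the cAMP-responsive, glycolysis and stress response lists lie mostly to the right, and the collagen, proteoglycan and cholesterol synthesis lists mostly to the left.

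Collagen genes were higher with D+M. COL1A1, the main chain of type I collagen (chromosome 12, 26379090 to 26397004, minus strand), read 895681, 788290 and 829871 with rosiglitazone and 1860210, 1729010 and 2020960 with D+M, beside 1039188 in vehicle. Rosiglitazone lay below vehicle and D+M above it (log2 difference -1.16, SE 0.18, limma adjusted p = 0.003294). COL11A1, a chain that nucleates fibrils, read 8655, 9411 and 9448 against 25127, 24373 and 35064 (-1.60), and COL3A1 differed by -0.92. Of 17 collagen chains tested 11 were higher with D+M and 1, COL6A3 (0.64), with rosiglitazone, at a median of -0.58. The calls of the very abundant chains changed with the scaling. After quantile normalization 7 were higher with D+M at a median of -0.25, COL1A1 differed by -0.35 (adjusted p = 0.308) and COL1A2 by -0.25 (0.39). Without a filter on low values 5 were higher with D+M, and COL1A1 and COL3A1 missed (0.0611 and 0.055).

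Other matrix genes were counted apart. Of 27 matrix glycoproteins, elastic fibre and crosslinking genes 14 were higher with D+M and 1 with rosiglitazone, at a median of -0.44 (14 and 2 after quantile normalization, 19 and 3 with the block). After ELN the largest were LTBP2 (-1.12), which binds elastic microfibrils, and EMILIN1 (-1.05). SPARC (-0.85), FBN1 (-0.59) and the crosslinker LOX (-0.45) were smaller. The exception was TGFBI, an adhesion protein that TGFβ induces, with 2040, 1902 and 2120 in rosiglitazone and 719.9, 679.8 and 653.6 in D+M (1.56, SE 0.08, limma adjusted p = 1.65e-05). Fibronectin, FN1, overlapped (-0.26, adjusted p = 0.5621) and turned positive after quantile normalization (0.26). Of 10 small leucine-rich proteoglycans, which bind collagen fibrils, 7 were higher with D+M and 0 with rosiglitazone (4 with no filter or no trend). ASPN, asporin, read 11398, 13012 and 13625 against 31806, 34982 and 42929 (-1.52), OGN 2589, 2689 and 2966 against 5999, 6715 and 8528 (-1.35), and OMD differed by -1.28. DCN, decorin, gave 0.05 and did not pass. Of 14 metalloproteinase and inhibitor genes 3 were higher with rosiglitazone, MMP1 (2.28), ADAMTS4 (1.51) and TIMP1 (0.44), and 5 with D+M, led by ADAMTS1 (-0.85). The 3 and 5 were 1 and 3 with no filter and 1 and 4 with no trend. The 5 were 3 without D+M replicate 1, where TIMP1 was lost too (adjusted p = 0.0572), and MMP1, a collagenase at 5.205 to 77.40 counts, was lost without rosiglitazone replicate 3 (adjusted p = 0.0591).

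TGFβ and Wnt genes had calls on both sides, and contractile genes on the D+M side. Of 27 genes of TGFβ and Wnt signalling 7 were higher with D+M and 4 with rosiglitazone. SFRP2, a secreted Wnt modulator, read 3922, 4566 and 4281 with rosiglitazone and 10096, 9158 and 10705 with D+M (-1.23, limma adjusted p = 5.30e-05). TGFB2 (-0.52) and TGFB3 (-0.38) were higher with D+M while TGFB1 (0.56) and the BMP antagonist GREM1 (0.59) were higher with rosiglitazone. The 7 and 4 were 2 and 1 with no filter, 4 and 0 with no trend, 4 and 2 without D+M replicate 2, 5 and 2 without rosiglitazone replicate 3, and 4 and 3 without D+M replicate 3. TGFB3 was lost without each library but rosiglitazone replicate 2 (adjusted p of 0.102 to 0.14), and GREM1 without rosiglitazone replicate 3, D+M replicate 2 or D+M replicate 3 (0.0702 to 0.0748). Of 17 contractile genes 3 were higher with D+M and 0 with rosiglitazone (4 and 1 with the block). MYH11, a smooth muscle myosin, read 664.0, 952.1 and 779.1 against 1743, 1909 and 2411 (-1.34) and CNN1, calponin, 739.5, 1358 and 898.3 against 1948, 2466 and 2386 (-1.22). Rosiglitazone replicate 2 was the highest of its group in both genes, and 7 contractile genes were higher with D+M when it was left out.

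Insulin and IGF genes went both ways. IRS2, an adaptor of the insulin receptor, read 7764, 6831 and 6847 with rosiglitazone and 4068, 4076 and 4220 with D+M (0.79, limma adjusted p = 1.92e-04), and TRARG1, a regulator of GLUT4 traffic, differed by 0.84. SLC2A4, which encodes the insulin-regulated glucose transporter GLUT4, went the other way at low counts, with 34.60, 27.39 and 19.35 against 67.68, 59.34 and 68.80 beside 3.081 in vehicle (-1.27, adjusted p = 0.01414). It was lost without D+M replicate 1 (0.0668) and without D+M replicate 3 (0.0553). IGFBP3 (2.28) was higher with rosiglitazone and IGFBP5 (-0.69) and IGFBP4 (-0.68) with D+M. In all, 5 of 19 genes were higher with rosiglitazone and 4 with D+M. The 4 were 1 with no filter, 2 with no trend and 2 without D+M replicate 1, where IGFBP4 was lost (adjusted p = 0.0504). Of 15 glucocorticoid targets 3 were higher with rosiglitazone (7, and 1 with D+M, with the block), ANGPTL4, ERRFI1 (1.00) and DUSP1 (0.30), both groups having had the same dexamethasone. DUSP1 was lost without each library but rosiglitazone replicate 1 (0.0652 to 0.205).

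Marker lists were summed to check the cell types. The summed normalized counts of 8 fat cell markers were 78255 to 85369 with rosiglitazone, 58333 to 65781 with D+M and 18397 to 21332 in vehicle, and 4 of the 8 were higher with rosiglitazone and 0 with D+M. The fibroblast and preadipocyte markers summed to 1264300 to 1403448 and 2558862 to 3038384, mostly through COL1A1 and COL3A1, beside 1651687 to 1800604 in vehicle. Of 6 tested 4 were higher with D+M. LUM was lost without any 1 library (limma adjusted p of 0.0591 to 0.138) and COL1A1 after quantile normalization (0.308). PDGFRA, LUM and DCN were higher in vehicle than with either treatment, while COL1A1 and COL3A1 in vehicle lay between the treatments. Of 6 mural and smooth muscle markers 3 were higher with D+M and 1, RGS5, with rosiglitazone, with overlapping sums of 106158 to 150924 and 136257 to 149832. RGS5 was lost without rosiglitazone replicate 1, rosiglitazone replicate 3, D+M replicate 1 or D+M replicate 2. Skeletal muscle markers summed to 135.8 to 225.1 with rosiglitazone and 240.3 to 303.2 with D+M, without overlap. Of 2 tested 1, desmin, DES, was higher with D+M (-1.44, adjusted p = 0.02247); it was lost without rosiglitazone replicate 1 (0.0538), rosiglitazone replicate 3 (0.0666), D+M replicate 2 (0.0722) or D+M replicate 3 (0.0686). MYF5, MYOD1 and MYOG averaged under 1. Of 3 bone and cartilage markers tested 1, the factor SOX9 (0.68), was higher with rosiglitazone, with overlapping sums of 3683 to 4577 and 3716 to 4200. The part of these in the results was not tested. Endothelial markers summed to 210.6 to 220.0 and 207.2 to 256.1, mostly through PECAM1 (158.4 to 206.4 in the 6 libraries) and ESAM (37.68 to 50.50), while KDR was listed at 0 in all 6 and CDH5, TIE1 and VWF averaged under 1. Of the lymphocyte genes CD79A read 35.10 to 53.98, and CD3D, CD3E, CD2 and MS4A1 were listed at 0. Macrophage markers summed to 674.5 to 967.6 and 774.6 to 960.3 through CD14 and CD68, with CD163 and PTPRC under 1 on average. Epithelial markers summed to 0.856 to 16.66 and 0 to 1.962. The endothelial, lymphocyte and macrophage genes tested did not pass. In bulk libraries fewer cells of a type and less RNA per cell cannot be told apart.

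The single compounds are given beside D+M and were not tested against it. PCK1 averaged 34.04 with dicoumarol (SD 20.67, n = 3) and 184.1 with magnolol (SD 46.49), below the 457.1 (SD 94.97) of D+M and the 1967 (SD 421.1) of rosiglitazone. ADIPOQ gave 293.2 (SD 50.69) and 1522 (SD 345.7), also below D+M at 2184 (SD 246.3). OLFML2B gave 1896 (SD 272.2) and 2442 (SD 340.7), near the 2515 (SD 305.6) of D+M, and COL1A1 gave 1564550 (SD 59730) and 1892540 (SD 169496), near 1870060 (SD 146224). In PCK1 and ADIPOQ D+M thus stood between each compound alone and rosiglitazone. In OLFML2B and COL1A1 rosiglitazone, at 402.2 (SD 23.41) and 837947 (SD 54149), stood below both compounds.

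Of the 594 genes higher with rosiglitazone in DFAT 425 had a single match by symbol in 3T3-L1, and 47.29% of these had the higher rosiglitazone mean there, against 48.71% of 8419 genes that were not called in DFAT. Of the 742 genes higher with D+M 521 had a match, and 79.27% of these had the higher D+M mean in 3T3-L1, against 51.29%. In 38.58% of the 521 the 3T3-L1 libraries did not overlap in that direction, against 17.86%. No test was made across the tables. FABP4 (2.51), CIDEC (2.19), PCK1 (1.96) and ADIPOQ (1.88) were higher with rosiglitazone in 3T3-L1 too, by the difference of mean log2 values.

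**Figure D5:**
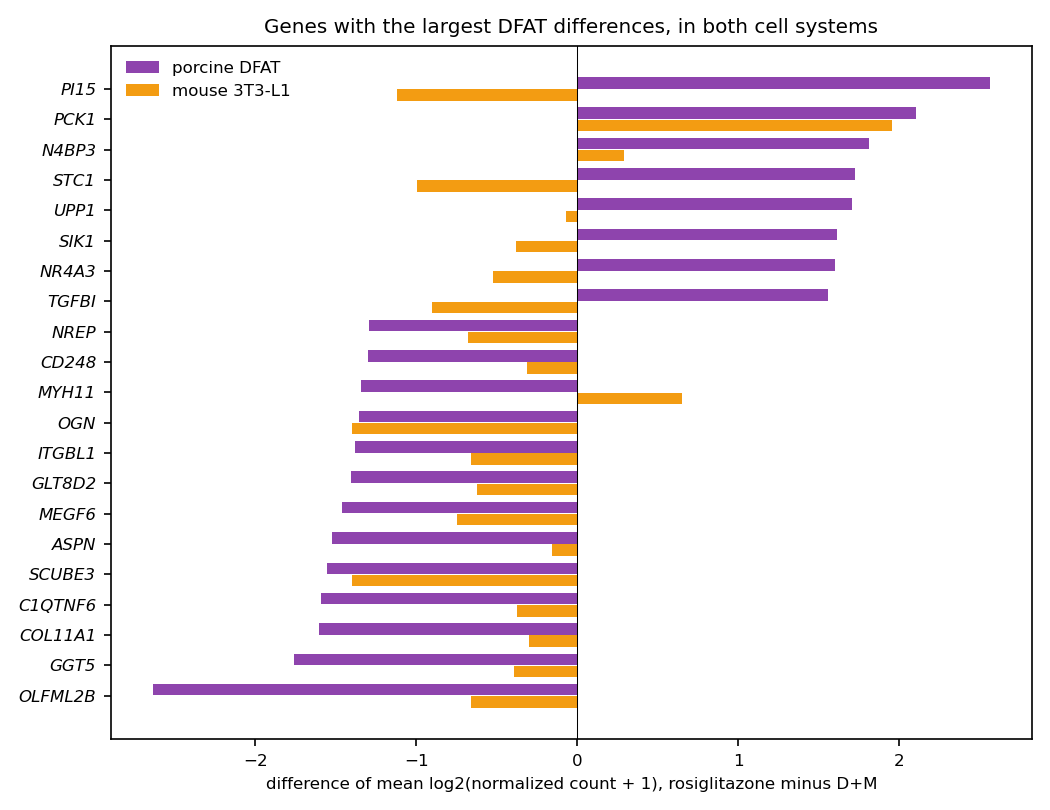
Difference of mean log2(normalized count + 1), rosiglitazone minus D+M, in DFAT and in 3T3-L1 for the genes with the largest DFAT differences that have a 3T3-L1 match. Bars start at 0; PCK1 points the same way in both systems, and PI15, STC1, SIK1 and TGFBI point opposite ways.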

How the data were processed

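Poly(A) RNA libraries marked for strand with dUTP were compared, 3 DFAT libraries with rosiglitazone and 3 with D+M. What the authors deposited is a signal per gene and library: read counts scaled by the size factor that DESeq2 gives each library, in 1 table for the 15 DFAT libraries, per the labels. The submitters' processing notes list bcl2fastq 2.19.1.403, STAR, DESeq2 and the mouse build GRCm38. The counter, pig build and annotation were not stated in the sources used here. Printed ends are the listed stop less 1. Each column name matched 1 sample title.

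The table holds 34307 genes, 16875 of them without a symbol and 9113 at 0 in all 15 libraries. Only 89.91% to 91.0% of low values came out as whole reads (tolerance 0.02, up to 20 reads), so no count test was run. Genes with a mean of at least 10 entered a limma fit (version 3.58.1, R 4.3.3) of log2(value + 1) on group alone, with moderated variances and a trend, two-sided, Benjamini-Hochberg at 0.05. The log2(value + 1) scale understates the change of low genes. The labels do not say whether libraries with the same replicate number were handled together. The number was used as a block in an alternative fit because each same-numbered pair deviated together (lowest r 0.122, threshold 0.1). Different numbers gave -0.243 to -0.023. Deviations from a group mean cancel within the group, so these are no separate contrast. No 2 replicates were a repeated library (chi-square per gene 8.043 to 91.04, where sampling noise gives about 1).

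Named genes were the 15 largest in each direction (symbol, adjusted p under 0.05, mean at least 100), a panel of fat, matrix and stress genes, and up to 4 called members of each of 36 lists. List members named outside that rule, such as ACSL1, PDE4D, ATF4, SPARC and DCN, were chosen after their values were seen. Some genes that the rule or the lists hold are not reported here. The members and lists were chosen with earlier results of these data known. The 16 alternatives were a replicate block, all 15 libraries, 3 groups with a block, pseudocounts of 0.5 and 10, no filter, a minimum mean of 50, quantile normalization, no variance trend, limma-voom and leaving out each library. The fit was tried on simulated data for this comparison (14718 genes, 200 changed). It recovered 67.2% of 1.5-fold, 74.6% of 2-fold and 97% of 4-fold changes. Of 174 calls 15 were false, a share above the threshold of 0.05. The simulated libraries were drawn independently, without deviations shared by replicate number, so these rates may not hold for the real libraries. Pig promoter and protein sequences were not used here. Python 3.11.15, numpy 2.4.6, pandas 2.3.3 and matplotlib 3.10.9 made tables and plots.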

Additional observations from a re-analysis of the deposited data

Results flagged for a closer look

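In 13 named genes all 3 rosiglitazone libraries lay on one side of all 3 D+M libraries in DFAT cells and on the other side in 3T3-L1 cells. The same held for 22.59% of the 425 matched genes that passed as higher with rosiglitazone in DFAT. Of the 521 matched genes higher with D+M it held for 6.334%, so the 13 are no excess over the genes that passed. The 2 tables were normalized apart and the difference between the systems was not tested. Values are the 3T3-L1 difference of mean log2(normalized count + 1), rosiglitazone minus D+M. Of the genes higher with rosiglitazone in DFAT, PI15 gave -1.117, STC1 (stanniocalcin, a secreted glycoprotein) -0.994, TGFBI -0.902 and ERRFI1 (an inhibitor of the EGF receptor) -0.898. SLC7A11, the cystine importer, gave -0.663, ADAMTS4 -0.421, LIPA -0.397, SIK1 -0.383 and SRXN1 -0.326. Of the genes higher with D+M in DFAT, SLC2A4 gave 2.04, the leucine breakdown enzyme MCCC2 0.338, CALR 0.307 and MVK 0.21.

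The gaps between the systems were widest for PI15 (3.681) and SLC2A4 (-3.311), as DFAT minus 3T3-L1 difference among the named genes. In 3T3-L1 SLC2A4 read 309.3, 152.2 and 203.8 normalized counts with rosiglitazone and 73.0, 30.24 and 59.59 with D+M, and in DFAT 34.60, 27.39 and 19.35 against 67.68, 59.34 and 68.80. PI15 read 76.53, 199.0 and 185.2 against 250.4, 318.4 and 365.5 in 3T3-L1, so rosiglitazone was the lower treatment there and the higher one in DFAT. The media differed in insulin, dexamethasone, IBMX, serum, biotin and pantothenate; the part of this in the values was not tested.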

How the results depend on the processing

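The 1336 calls (594 higher with rosiglitazone, 742 with D+M) became 2685 (1283 and 1402) with the replicate block, 2523 (1224 and 1299) with all 15 DFAT libraries in 1 model, and 3793 (1920 and 1873) in 3 groups with magnolol and a replicate block. They became 723 (319 and 404) with no filter on low values, where 23478 genes were tested, and 670 (280 and 390) with no variance trend. The cause was not tested. Leaving out 1 library gave 726 to 1453 calls, 312 to 567 higher with rosiglitazone and 414 to 886 higher with D+M. The counts under both pseudocounts, a minimum mean of 50, quantile normalization and limma-voom stayed within 1.5 times, at 1333 to 1452. The replicate block added calls and removed none of the 1336. List counts that it moved by over 1.5 times stand beside those lists, besides 1 gene added in each of the citric acid cycle and respiratory chain lists. Of 131 named genes called, 87 kept their direction and call in all 16 alternatives. Of the 144 named, 34 lost the call with no filter, 35 with no trend, 5 after quantile normalization and 6 to 23 without 1 library. FN1 reversed after quantile normalization (0.26). The promoter motif search was not run, since no pig promoter table was used.

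With 3 libraries a group, the median SE of a log2 difference was 0.111, or 0.0856 with the block.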

Other observations

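Retinoid, complement, inflammatory and other lists are given here. Of 12 genes of retinol binding and retinoid metabolism 1, the retinol binding protein RBP5, was higher with rosiglitazone, with 904.8, 621.4 and 793.4 normalized counts against 328.6, 222.8 and 233.1 with D+M and a vehicle mean of 19.72 (log2 difference 1.57). The 4 higher with D+M were CRABP2 (-0.85), which carries retinoic acid to its receptor, RDH10 (-0.64), ALDH1A1 (-0.53) and CYP26B1 (-0.51), the last lost without rosiglitazone replicate 1 (limma adjusted p = 0.0555) or D+M replicate 1 (0.058). Of 12 complement genes 3 were higher with D+M, C1S (-0.71), MASP1 (-0.61) and C1R (-0.40), proteases that start the cascade, and for all 3 vehicle was above both treatments. C1R was lost without rosiglitazone replicate 2, rosiglitazone replicate 3, D+M replicate 1 or D+M replicate 2 (0.066 to 0.14). Of 19 chemokine and inflammatory genes 5 were higher with rosiglitazone, among them LIF (1.10) and IL6 (0.72), and 3 with D+M, the adhesion molecule VCAM1 (-0.95), CCL2 (-0.63) and PTX3. With the block 9 were higher with rosiglitazone; the 5 were 1 with no filter on low values, 2 with no variance trend and 3 without rosiglitazone replicate 1 or D+M replicate 1. IL6 was lost without each library but rosiglitazone replicate 3 (limma adjusted p of 0.0801 to 0.119). Of 26 interferon-stimulated genes 2 were higher with D+M, IFI44L (-0.47) and OAS2 (-0.44). They were 9 with the block and 0 with no filter or no trend. They were 1 without rosiglitazone replicate 1, rosiglitazone replicate 3 or D+M replicate 1, and 0 without D+M replicate 2. OAS2 was lost without any 1 library (limma adjusted p of 0.0522 to 0.157). It was also lost after quantile normalization (0.0568) and with all 15 DFAT libraries in 1 model (0.0625). Of 18 genes of branched-chain amino acid breakdown 1, MCCC2, was higher with D+M (3 with the block), and of 24 cell cycle genes 1, PCNA (0.36), with rosiglitazone. Each of these was lost with no trend and without rosiglitazone replicate 3 or D+M replicate 1, MCCC2 also without D+M replicate 2. Among all genes tested 5.0% were higher with D+M and 4.0% with rosiglitazone, near what 1 gene makes of either list.

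In all, 145 genes that passed carry no symbol. Chosen after their values were seen, ENSSSCG00000027124 on chromosome 14 (42180239 to 42197179) read 7555, 10130 and 7352 with rosiglitazone and 23143, 24282 and 20431 with D+M (-1.45). The noncoding ENSSSCG00000061181 on chromosome 13 differed by -1.34 and ENSSSCG00000056213 on chromosome 7 by 1.31.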
